A study of Mus musculus with 4 samples.

Results

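H3K4me3 regions that held no sequencing tag at all of the other mouse strain were examined in embryonic stem (ES) cells of non-obese diabetic (NOD) and C57BL/6 (B6) mice. They were selected on tag values: regions of the B6-enriched or NOD-enriched H3K4me3 list on chromosomes 1 to 19, under 1000 bp long, with 15 or more tags of their own strain at the smaller library size and 0 tags of the other. This gave 2265 of the 7587 regions of the B6 list and 2595 of the 12077 regions of the NOD list, together 4860 of 19664, and they are called empty regions here. ChIP-Seq had been carried out for H3K4me3 and H3K27ac (antibodies Abcam ab8580 and Active Motif 39133) on ES cells of both strains grown in 2i, that is with inhibitors of MEK and GSK3. The B6 cells stood for the diabetes-resistant and the NOD cells for the diabetes-prone strain. Each strain and mark had 1 library and no replicate, so no test between strains was possible and all intervals below cover counting error only. Per the headers, 14791364 tags made up the B6 H3K4me3 library and 22750449 that of NOD.

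H3K4me3, trimethylation of lysine 4 of histone H3, is laid down around transcription start sites (TSSs) of active or poised genes and is strongest at promoters rich in CpG. H3K27ac, acetylation of lysine 27, marks active enhancers and promoters. B6 is the strain from which the mouse reference genome was made. Reads of NOD are therefore placed on the genome of another strain, and a place that NOD lacks, or that differs much in it, can hold no NOD tags whatever its chromatin state. A read from sequence present in several copies may also be placed at another copy or be left out.

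Since placement of reads matters for regions of this kind, reference sequence of GRCm38, the build also called mm10, is shown for the centres of 5 empty regions, all on the plus strand. They are the regions with the most and the second most own tags in each list, and the region with the most tags within the longest run of empty regions of the B6 list. Capitals mark bases that lie in a word of 50 bases, the read length, found more than once in the reference on either strand.

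B6 list, most tags, Gm9595, chr13:61713152-61713451: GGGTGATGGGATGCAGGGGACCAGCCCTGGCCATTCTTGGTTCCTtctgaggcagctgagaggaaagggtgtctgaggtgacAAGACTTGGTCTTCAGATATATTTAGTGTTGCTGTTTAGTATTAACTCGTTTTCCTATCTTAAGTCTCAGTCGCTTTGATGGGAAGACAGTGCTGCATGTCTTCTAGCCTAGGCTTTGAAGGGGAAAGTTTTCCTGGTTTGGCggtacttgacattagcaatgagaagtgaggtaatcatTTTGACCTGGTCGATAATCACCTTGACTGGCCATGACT
B6 list, second most tags, LOC115487747, chr11:113172718-113173017: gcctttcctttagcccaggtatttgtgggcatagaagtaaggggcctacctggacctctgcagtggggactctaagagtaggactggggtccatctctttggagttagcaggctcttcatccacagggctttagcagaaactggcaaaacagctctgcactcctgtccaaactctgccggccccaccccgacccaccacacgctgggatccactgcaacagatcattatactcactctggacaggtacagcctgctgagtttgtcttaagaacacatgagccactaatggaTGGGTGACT
B6 list, longest run, Thsd7a, chr6:12744172-12744471: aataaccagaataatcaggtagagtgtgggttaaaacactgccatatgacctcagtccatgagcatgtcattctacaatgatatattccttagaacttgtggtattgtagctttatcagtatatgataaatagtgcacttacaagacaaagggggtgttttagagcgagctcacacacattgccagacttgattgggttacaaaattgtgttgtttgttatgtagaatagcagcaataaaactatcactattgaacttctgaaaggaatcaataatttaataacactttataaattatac
NOD list, most tags, Gm3489, chr1:44824340-44824639: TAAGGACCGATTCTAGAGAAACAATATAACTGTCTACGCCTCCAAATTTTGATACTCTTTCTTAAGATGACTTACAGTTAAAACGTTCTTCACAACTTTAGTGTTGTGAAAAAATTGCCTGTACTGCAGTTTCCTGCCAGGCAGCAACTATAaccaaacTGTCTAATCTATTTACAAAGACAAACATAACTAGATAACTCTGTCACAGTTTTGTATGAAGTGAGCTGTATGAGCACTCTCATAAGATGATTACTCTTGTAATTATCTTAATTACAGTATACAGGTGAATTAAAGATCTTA
NOD list, second most tags, nearest to Vmn1r220, chr13:23175920-23176219: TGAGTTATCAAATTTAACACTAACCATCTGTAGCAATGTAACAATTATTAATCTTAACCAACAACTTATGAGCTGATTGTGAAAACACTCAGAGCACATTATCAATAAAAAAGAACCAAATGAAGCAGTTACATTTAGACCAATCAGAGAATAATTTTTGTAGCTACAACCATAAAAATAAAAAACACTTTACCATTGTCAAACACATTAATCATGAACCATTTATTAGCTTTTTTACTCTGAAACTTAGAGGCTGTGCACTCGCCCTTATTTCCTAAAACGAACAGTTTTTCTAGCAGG

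In the NOD list the 2 strongest empty regions were made almost wholly of repeated words at their centres, with 293 and 300 capitals of 300 bases. The strongest of the B6 list had 226 and the second 9. The region from the longest B6 run had none.

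The number of tags of the other strain was first laid out for all regions that met the same limits of size, chromosome and own tags. Of 6285 such B6 regions 36% (95% interval 34.9 to 37.2) were empty in NOD, and of 8518 NOD regions 30.5% (29.5 to 31.5) were empty in B6. These shares are the background for every count below, and they are fixed by the selection. In the B6 list 0 was by far the most frequent tag number, with 2265 regions against 421 with 1 NOD tag, 443 with 2 and 543 with 3. The NOD list had 2595 regions with 0, against 799 with 1 B6 tag, 1021 with 2 and 1052 with 3. The headers of the deposited lists give 1.798 NOD tags and 1.615 B6 tags as the number expected by the caller in a 500 bp window. A count of 0 allows up to 3 tags, so that none of these regions can be called free of the mark in the other strain at this depth.

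**Figure D1:**
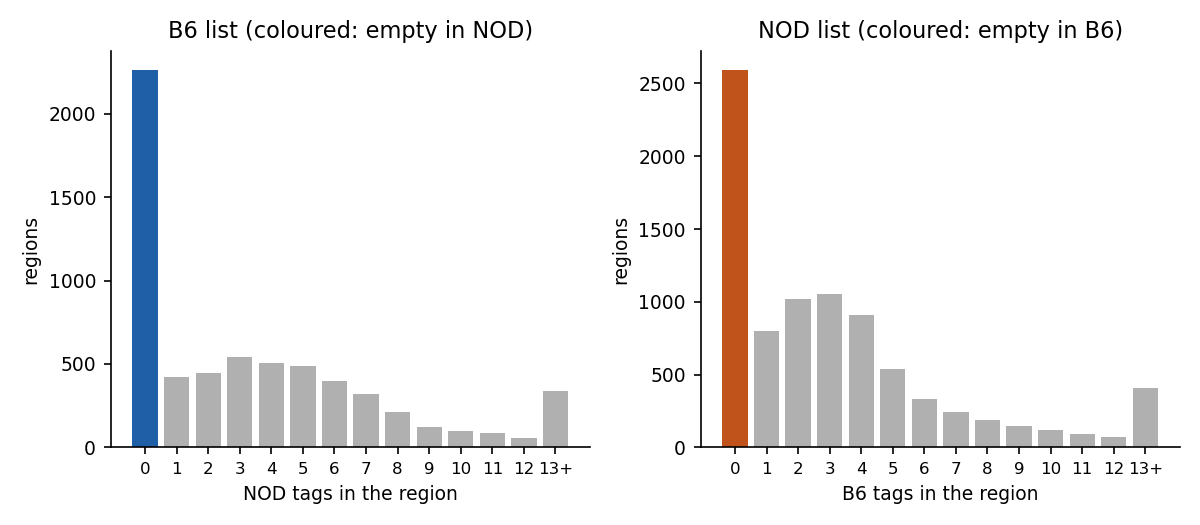
Number of regions (y axis) by whole tags of the other strain (x axis) for all regions of each list with the size, chromosome and tag limits of the selection. Coloured bars are the empty regions, 2265 in the B6 list and 2595 in the NOD list, and stand above every other tag number, the last bar taking 13 tags and more.

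Most empty regions were weak and narrow. Empty B6 regions held 15 to 105 B6 tags, with a median of 19 and quartiles of 17 and 23. Empty NOD regions held 23 to 152 whole NOD tags, with a median of 28 and quartiles of 25 and 33, which is a median of 18.2 at the B6 library size. Regions of the same lists with tags of the other strain had medians of 22 in B6 and 23.4 in NOD on that scale. Exactly 500 bp, a single call, were 2035 empty B6 and 2154 empty NOD regions. With 3 tags of the other library as the limit, a median empty region was at least 9.74-fold above NOD in the B6 list and at least 6.07-fold above B6 in the NOD list. At the lower limit of the selection, 230 B6 regions had 15 tags and a further 175 empty ones had 14, just outside it. In the NOD list 200 regions had 15 scaled tags and 219 empty ones had 14.3.

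The share of empty regions fell with the number of own tags in both lists. At 15 to under 20 tags it was 47.0% (45.0 to 48.9) in the B6 list and 45.7% (44.1 to 47.4) in the NOD list. At 50 tags or more it was 4.45% (2.62 to 7.47), which is 13 of 292 B6 regions, and 2.72% (1.78 to 4.12), which is 21 of 773 NOD regions. The calling of the lists bears on this, because a 4-fold excess was required and a weak region can pass it only with few tags of the other strain. Empty regions with 30 tags or more, here called strong, numbered 118 in B6 and 109 in NOD.

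**Figure D2:**
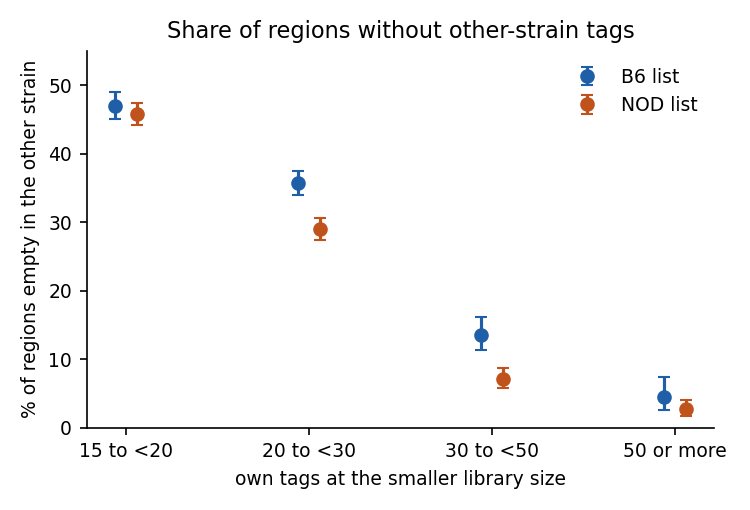
Percent of regions without tags of the other strain (y axis) by class of own tags at the smaller library size (x axis), with 95% Wilson intervals. The share falls from 47.0% to 4.45% in the B6 list and from 45.7% to 2.72% in the NOD list.

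To see how much of these regions is single-copy, every 50-base word of a region was looked up in the reference. The look-up is the same for both strains. It cannot show whether the strain without tags carries the sequence. Empty regions as a whole were mostly single-copy. All words were found once in 1754 of 2265 empty B6 regions (77.4%, 75.7 to 79.1) and in 3043 of 4020 B6 regions with NOD tags (75.7%, 74.3 to 77.0). In the NOD list this was so for 2055 of 2595 empty regions (79.2%, 77.6 to 80.7) and for 4587 of 5923 with B6 tags (77.4%, 76.4 to 78.5). The median share of words found once was 100% in all 4 groups. Assembly gaps lay within 10 kb of 1 empty B6 region (0.04%, 0.01 to 0.25) and 7 empty NOD regions (0.27%, 0.13 to 0.56). Of the others, such gaps lay near 14 (0.35%, 0.21 to 0.58) and 26 (0.44%, 0.30 to 0.64), with overlapping intervals in both lists. Within 100 kb they lay near 0.79% and 1.46% of empty regions, against 1.39% and 2.03%.

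Strong empty regions were different. In the B6 list, single-copy regions made up 81.3% (79.0 to 83.4) of the empty regions with 15 to under 20 tags, 50.5% (41.1 to 59.9) of those with 30 to under 50, and 1 of the 13 with 50 or more. Among B6 regions with NOD tags these shares were 79.0% (76.7 to 81.1), 72.2% (68.7 to 75.4) and 60.6% (54.7 to 66.1). At 30 tags or more, 54 of 118 empty B6 regions were single-copy (45.8%, 37.0 to 54.7), against 654 of 951 with NOD tags (68.8%, 65.8 to 71.6), and the intervals did not overlap. In the NOD list 69 of 109 strong empty regions were single-copy (63.3%, 53.9 to 71.8), against 1420 of 1896 with B6 tags (74.9%, 72.9 to 76.8). These intervals did not overlap either. With 30 to under 50 tags the NOD shares were 67.0% (56.7 to 76.0) and 74.3% (71.7 to 76.7), with overlapping intervals. With 50 or more they were 47.6% (28.3 to 67.6) and 75.8% (72.6 to 78.7), empty regions first. Regions with fewer than 50% of their words found once made up 16.1% (10.6 to 23.8) of strong empty B6 regions and 5.57% (4.29 to 7.22) of those with NOD tags. The same comparison in NOD gave 9.17% (5.06 to 16.1) and 2.64% (2.01 to 3.46). Whether the copies are the reason why tags were missing was not tested.

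The copies were both near and far. Of all words in empty B6 regions with 30 to under 50 tags, 78.3% were found once, 6.72% had another copy within 1 Mb, 7.94% had only distant copies and 7.07% had more than 50 copies. In the weakest class, with 15 to under 20 tags, 96.5% were found once and 0.59% had a copy within 1 Mb. Empty NOD regions with 30 to under 50 tags had 93.6% of words found once and 2.73% with a copy within 1 Mb. The 73 empty B6 regions with fewer than 50% of words found once were spread over 18 chromosomes. In 41 of them the largest class was words with more than 50 copies, in 21 distant copies and in 11 copies within 1 Mb. The 30 such NOD regions lay on 13 chromosomes, and copies within 1 Mb were the largest class in 14. Only 2 bins of 5 Mb held 3 or more of either kind. One was chr13 from 65 to 70 Mb, with 4 of the 8 empty B6 regions there, near Gm10323 and other predicted genes. The other was chr2 from 175 to 180 Mb, with 6 of the 11 empty NOD regions there, near Gm14322, Gm14403 and Gm14410.

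**Figure D3:**
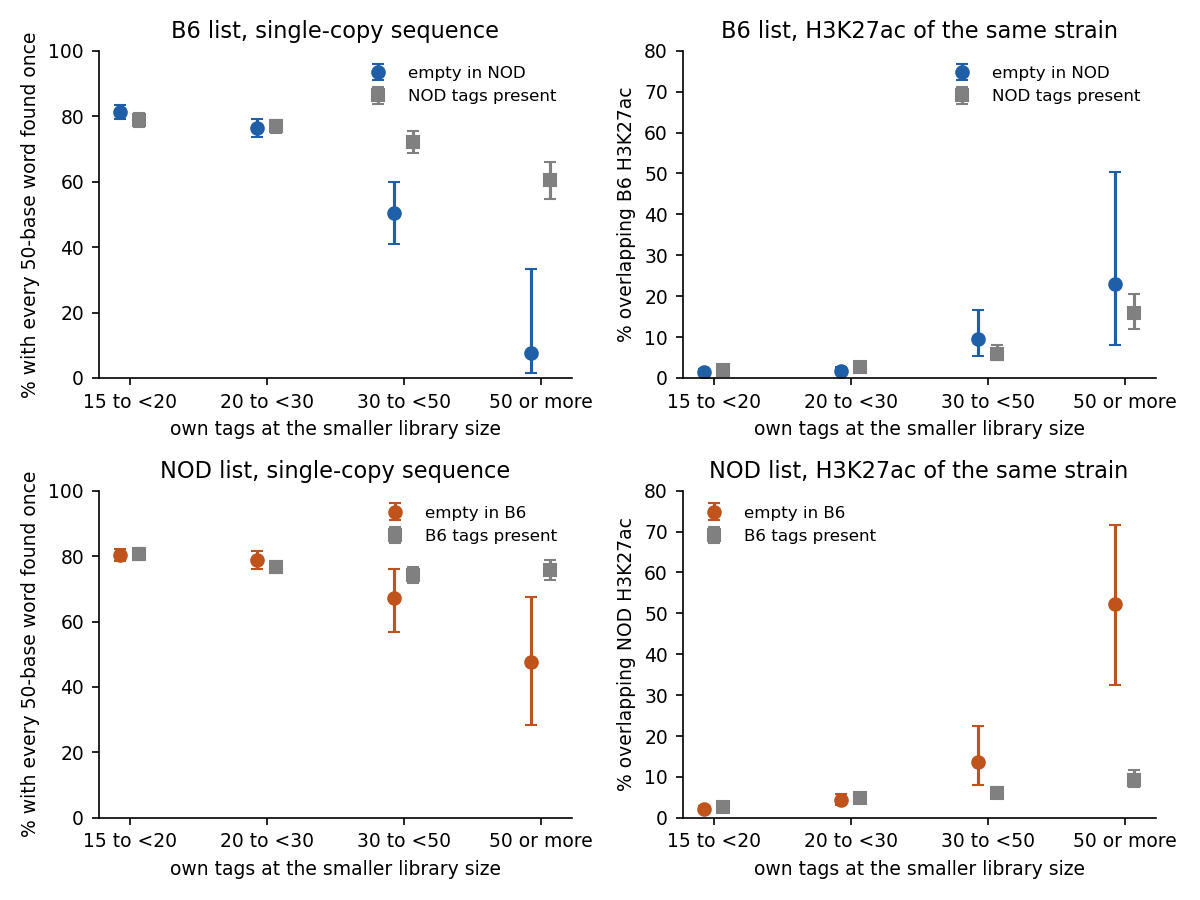
Left, percent of regions in which every 50-base word is found once in the reference (y axis), and right, percent that overlap an H3K27ac region of the same strain (y axis), both by class of own H3K4me3 tags (x axis), for empty regions (circles) and regions with tags of the other strain (squares), with 95% Wilson intervals. Single-copy shares of empty regions part from the others at 30 tags and more in B6 and at 50 tags or more in NOD. The H3K27ac share of empty NOD regions rises to 52.4%.

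H3K27ac had been measured in other libraries and had no part in the selection. The deposited H3K27ac lists were also called against the other strain, so an overlap means that both marks were enriched on the same side. Over all tag classes, H3K27ac of the same strain overlapped 45 of 2265 empty B6 regions (1.99%, 1.49 to 2.65) and 93 of 2595 empty NOD regions (3.58%, 2.93 to 4.37). Regions with tags of the other strain gave 3.93% (3.37 to 4.58) in B6 and 4.98% (4.46 to 5.56) in NOD. Among weak regions the difference was small. With 15 to under 20 tags the shares were 1.35% (0.83 to 2.17) and 2.01% (1.39 to 2.91) in B6, and 2.08% (1.49 to 2.89) and 2.73% (2.09 to 3.55) in NOD, empty regions first.

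Among strong NOD regions the order was turned. H3K27ac of NOD overlapped 23 of 109 strong empty NOD regions (21.1%, 14.5 to 29.7), against 139 of 1896 with B6 tags (7.33%, 6.24 to 8.59). With 50 tags or more it was 11 of 21 (52.4%, 32.4 to 71.7) against 70 of 752 (9.31%, 7.43 to 11.6). In the B6 list 13 of 118 strong empty regions were overlapped (11.0%, 6.55 to 17.9), against 84 of 951 (8.83%, 7.19 to 10.8), and these intervals overlapped. H3K27ac enriched in the opposite strain was rare in every group. It overlapped 6 empty regions of the B6 list (0.26%, 0.12 to 0.58) and 12 of the NOD list (0.46%, 0.26 to 0.81), against 27 (0.67%, 0.46 to 0.98) and 72 (1.22%, 0.97 to 1.53) of the regions with tags of the other strain. One of the 6 lay 2.52 kb upstream of Dppa3, a maternal and pluripotency factor, where 16 B6 tags stood inside a NOD-enriched H3K27ac region.

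Empty regions were seldom at the start of a gene. The centre lay within 1 kb of a TSS in 128 empty B6 regions (5.65%, 4.77 to 6.68) and 148 empty NOD regions (5.70%, 4.87 to 6.66). In regions with tags of the other strain the shares were 22.4% (21.1 to 23.7) and 21.9% (20.8 to 22.9). The gap was also present between regions of like tag number up to 50 tags. With 15 to under 20 tags, 5.13% (4.01 to 6.54) of empty B6 regions were at a TSS against 13.1% (11.4 to 15.03) of the others, and in NOD 5.25% (4.27 to 6.44) against 11.6% (10.3 to 13.1). With 30 to under 50 tags the shares were 12.4% (7.38 to 20.04) against 39.3% (35.7 to 43.0) in B6, and 6.82% (3.16 to 14.1) against 31.1% (28.5 to 33.9) in NOD. With 50 tags or more the intervals of the groups overlapped, at 46.2% (23.2 to 70.9) against 58.4% (52.6 to 64.1) in B6 and 28.6% (13.8 to 49.96) against 45.5% (42.0 to 49.1) in NOD. Between genes lay 47.0% of empty B6 and 46.0% of empty NOD regions, against 38.9% and 36.5% of the others. The shares in introns were close, with 45.8% and 46.7% of empty regions and 45.3% and 47.0% of the others.

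Base composition followed the same line. Empty regions had a median GC content of 42.5% in B6 and 43.3% in NOD, close to the 41.9% of chromosomes 1 to 19. Regions with tags of the other strain had 47.5% and 47.9%. The median ratio of observed to expected CpG was 0.19 in both sets of empty regions, against 0.28 in both sets of others, and the median number of CpGs per region was 4 in both, against 8 in B6 and 9 in NOD. With 15 to under 20 tags the differences were smaller, with a CpG ratio of 0.18 against 0.21 in B6 and 0.18 against 0.22 in NOD, and a GC content of 42.1% against 44.7% and of 42.9% against 45.5%. With 50 tags or more the order was turned in B6, where the 13 empty regions had a CpG ratio of 0.56 against 0.46 and a GC content of 56.97% against 51.5%. Repeats masked in the reference took a median of 17.8% of an empty region in either list, against 15.4% and 14.8% in the others and 33.5% of the chromosomes as a whole. Strong empty B6 regions, in contrast to the weak ones, had a median GC content of 51.1%, near the 51.7% of strong regions with NOD tags. The corresponding NOD values were 47.8% and 50.5%.

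**Figure D4:**
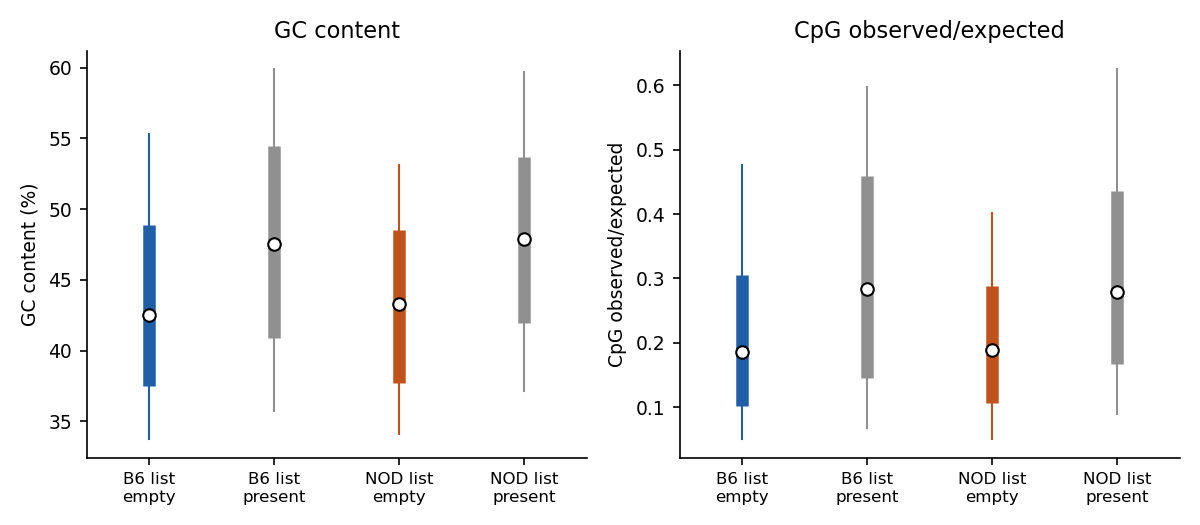
GC content in percent (left) and ratio of observed to expected CpG (right) of empty regions and of regions with tags of the other strain (labelled present). Circles are medians, thick bars quartiles and thin lines the 10th to 90th percentiles. Empty regions of both lists lie lower on both scales, with GC medians of 42.5% and 43.3%.

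Of the 10 strongest empty B6 regions, 9 held some repeated words. In 9 of the 10, from 66.6% to 100% of the words were found once, and in 1 it was 23.9%. The first, chr13:61712912-61713693, held 105 B6 tags, at least 53.8-fold above the NOD limit, and lay in an intron of the predicted gene Gm9595, 305 bp from its TSS. Of its words 76.1% were found once and 21.3% had another copy within 1 Mb. The second, chr11:113172556-113173181, held 103 tags, lay 215 bp from the TSS of the long noncoding RNA LOC115487747, and overlapped B6 H3K27ac. The third, chr9:22164769-22165746, was the exception among the 13 with 50 tags or more: it held 87 tags, all of its words were found once, and the nearest TSS, that of Pigyl, was 8.41 kb away. Pigyl encodes a homologue of a protein of glycosylphosphatidylinositol anchor synthesis. The fourth, with 85 tags, was in an exon of the noncoding AA388235, 2.83 kb upstream of the MHC class I gene H2-K2, and 66.6% of its words were found once.

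The other empty B6 regions among the 10 strongest had 53 to 74 tags. Of these, 3 were on chromosome 6: one with 74 tags in the immunoglobulin kappa locus Igk, one with 64 between genes, and one with 60 tags 16.8 kb from 1700065J11Rik. The Igk region and that with 64 tags both overlapped B6 H3K27ac. The region with 54 tags was in an intron of Melk, which encodes a mitotic kinase. It was 92.8% repeat-masked and had only 23.9% of words found once. In the MHC, chr17:36110718-36111676 held 53 tags at the starts of BC023719 and H2-T-ps, both classed as pseudogenes by name or biotype, and 26.4% of its words had another copy within 1 Mb. The tenth, also with 53 tags, was 93.0 kb from the nearest TSS.

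Among the 10 strongest empty NOD regions, 7 had 90.1% to 100% of their words found once, and 3 had fewer than 50%. The first, chr1:44824176-44824805, held 152 NOD tags, at least 32.9-fold above the B6 limit. It lay in an intron of Gm3489, was 100% repeat-masked, and had 22.0% of words found once. The second, chr13:23175820-23176320, held 134 tags 8.45 kb from Vmn1r220, a pheromone receptor gene, and was 97.8% masked with 21.9% of words found once. The third, chr4:52586622-52587382, held 127 tags 9.27 kb upstream of Toporsl. All of its words were found once, and it overlapped a NOD H3K27ac region in which the authors annotated an ERVK repeat, RMER6D.

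The next NOD regions lay at gene starts more often. One with 119 tags was 331 bp into the noncoding Gm31415. One with 112 tags was at the TSS of Epb41l2, which encodes a protein linking the cytoskeleton to the membrane. This region had 99.7% of words found once and overlapped NOD H3K27ac. The region with 94 tags at Gm40987 also overlapped NOD H3K27ac and had 71.0% of its words repeated within 1 Mb. Of the regions with 91 tags, one lay 907 bp upstream of Wdr43, a ribosome biogenesis factor, with 90.1% of words found once. The other lay 5.71 kb upstream of Rfx1, a transcription factor, with 98.6%, and NOD H3K27ac overlapped it. The ninth, with 90 tags in an intron of 4933433G19Rik, and the tenth, with 89 tags 629 bp into Grhl1, an epithelial transcription factor, were wholly single-copy.

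In all, 146 genes had a TSS within 1 kb of an empty B6 region and 156 within 1 kb of an empty NOD region. Long noncoding RNAs made up 24.7% and 33.3% of them, against 17.8% and 22.6% of the genes at regions with tags of the other strain. Beyond the genes named above, the B6 list had Gm17330 with 51 tags, Gm13286 with 50, Sh3rf2 with 47, Gm52719 with 43 and Gm10323 with 41. Sh3rf2, which encodes a RING finger protein, was single-copy and overlapped B6 H3K27ac. Of the predicted genes, Gm17330 and Gm10323 had 24.2% and 19.9% of words found once, and Gm52719 was single-copy. The NOD list had Gm10570 with 78 tags, Gm26812 with 66, Gm30718 with 64 and Gm1070 with 54, all single-copy, and the ubiquitin pseudogene Ubb-ps with 58 tags and 9.51% of words found once.

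Families that often differ in copy number between strains were then looked up within 5 kb. Of all 37223 genes with a TSS on these chromosomes, 1.40% had an empty B6 region and 1.87% an empty NOD region that near. Regions with other-strain tags were that near 2077 genes in the B6 list and 3467 in the NOD list. For 1121 olfactory receptor genes the counts of genes near empty regions were 9 (0.80%) and 10 (0.89%), and for 349 vomeronasal receptor genes 1 (0.29%) and 3 (0.86%). Regions with other-strain tags were near 13 and 18 of the olfactory and 5 and 4 of the vomeronasal receptor genes. Zinc finger genes, many of which silence retroelements, had 7 and 11 of 427 near empty regions, that is 1.64% and 2.58%. Far more of the 427, 47 and 65, were near regions with other-strain tags, so an excess particular to empty regions cannot be read from these shares. Of the NOD zinc finger regions, that at Rex2 held 31 tags 72 bp from the TSS and had 22.6% of its words found once. The other regions within 1 kb of a zinc finger gene held 20 tags at Zfp52 and 20 at Zfp831 in B6, and 23 at Zfp428 in NOD. Of the olfactory receptors, Olfr491 alone had one that near, with 17 B6 tags. The MHC list had 2 of 40 genes in B6, H2-K2 and H2-T-ps, and 1 in NOD, H2-M5 with 23 tags. Among 75 defensins, genes of antimicrobial peptides, both lists had 2, and Defb14 had an empty region of each strain, with 17 B6 tags 3.03 kb upstream of its start and 28 NOD tags 1.16 kb downstream. The lectin-like receptors had Klrd1 and Klrg1 in B6 and none in NOD, out of 63. Of 105 cytochromes P450, Cyp3a11 was near an empty B6 region and Cyp26a1, Cyp2d34 and Cyp2j6 near empty NOD regions, that of Cyp2d34 with 31 tags 463 bp from the TSS. Serpins gave 1 of 64 in B6, Serpinc1, and none in NOD. The Serpinc1 region, with 18 B6 tags, stood 311 bp from a NOD-enriched region with 30 NOD tags and 1 B6 tag. In the NOD list 5 serpins had a region with B6 tags within 5 kb. Ly6 genes gave none in B6 and 1 of 21 in NOD, Ly6e, an interferon-induced surface protein. The region there held 79 tags 4.07 kb upstream, with 97.5% of words found once, and overlapped NOD H3K27ac. No gene of the Ifi200 cluster or of the Sp100 family had an empty region within 5 kb in either list. Of the 3 Sp100 family genes, 2 had a B6 region with NOD tags that near.

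Markers were looked up as well, although the lists hold only regions that differ between strains and cannot show whether a marker was active. Of 10 ES cell genes, Dppa3 had the empty B6 region given above, and Zfp42 had an empty NOD region with 29 tags 4.22 kb upstream. Of 6 genes of differentiated cells, Gata4, an endoderm factor, had an empty B6 region with 15 tags, at the lower limit, 2.59 kb into the gene. A NOD-enriched H3K4me3 region with 21 NOD tags and 1 B6 tag stood 332 bp from it. In the NOD list, 2 of the 6 genes had a region with B6 tags within 5 kb, and none had an empty one.

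Clustering along the chromosomes was examined next. Empty B6 regions were densest on chromosome 6, with 367 regions or 2.45 per Mb, and next on chromosome 8, with 1.45 per Mb. The 17 remaining chromosomes had 0.62 to 1.02 per Mb. Empty NOD regions were densest on chromosome 8, with 368 regions or 2.84 per Mb, while chromosome 6 had 0.67 and the 17 others 0.80 to 1.10. The whole lists were dense on the same chromosomes, with 866 B6 regions on chromosome 6 and 1050 NOD regions on chromosome 8 within the same limits. The share that was empty was 42.4% (39.1 to 45.7) on chromosome 6 in the B6 list, where the 17 others gave 29.5% to 39.6%. On chromosome 8 in the NOD list it was 35.0% (32.2 to 37.98), where the 17 others gave 25.1% to 35.7%. H3K27ac regions of NOD were also densest on chromosome 8, with 3.33 per Mb against 1.83 to 2.96 on the 17 others, while those of B6 had 3.30 per Mb on chromosome 6, inside the range of 1.54 to 3.68. With 1 library per strain, a difference in the number of chromosome copies and one in the marks cannot be told apart.

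**Figure D5:**
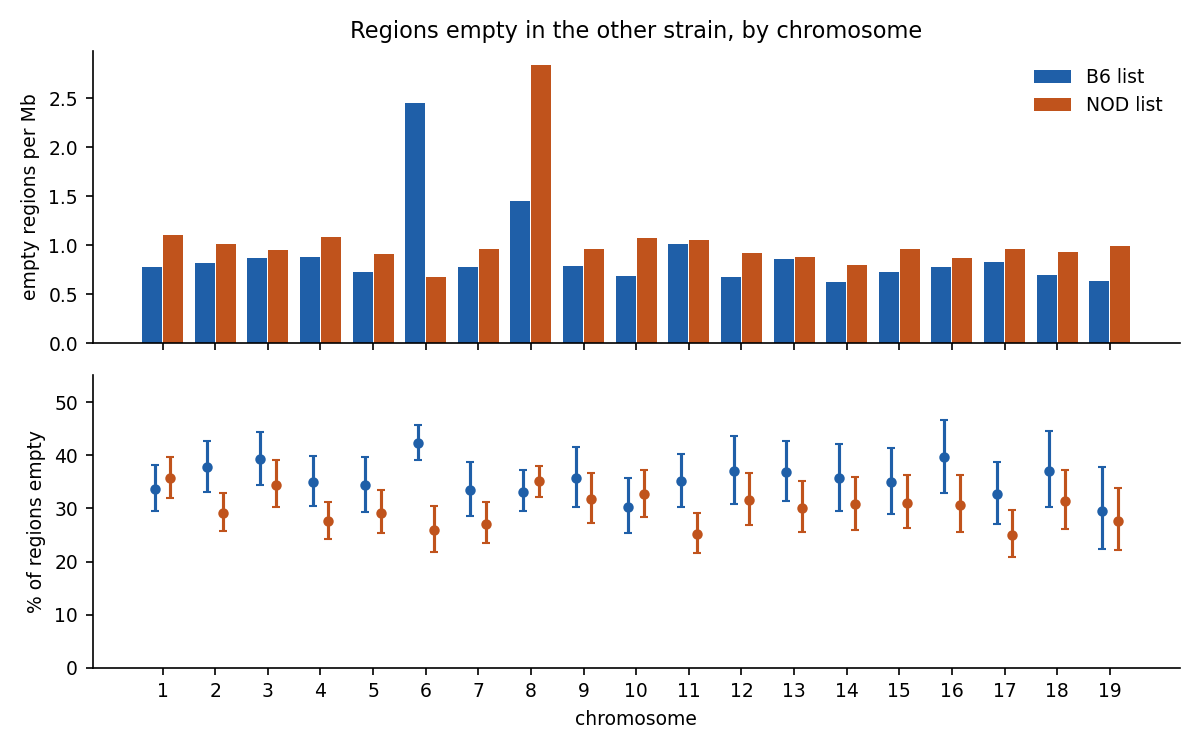
Empty regions per Mb (top) and percent of regions within the size and tag limits that are empty (bottom, with 95% Wilson intervals) for chromosomes 1 to 19. The density peaks at 2.45 per Mb on chromosome 6 in B6 and 2.84 on chromosome 8 in NOD, while the percent empty varies far less.

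Neighbours were then compared. For 892 of 2265 empty B6 regions the nearest B6 region within the same limits was also empty (39.4%, 37.4 to 41.4), and this was so for 1300 of 4020 regions with NOD tags (32.3%, 30.9 to 33.8). In the NOD list the shares were 34.5% (32.7 to 36.4) and 27.6% (26.5 to 28.8). Empty regions were thus next to one another somewhat more often than the others were next to them, by 7.04 percentage points in B6 and 6.92 in NOD. Regions nearest to each other were counted from both sides, so the counts are not independent and the intervals of these shares are too narrow. Without chromosomes 6 and 8 the shares were 38.8% and 31.2% in B6 and 34.7% and 26.8% in NOD. On chromosome 8 alone the order was turned, with overlapping intervals: 31.9% (25.7 to 38.9) and 33.2% (28.7 to 38.1) in B6, and 34.8% (30.1 to 39.8) and 35.8% (32.3 to 39.4) in NOD. With strong regions left out they were 43.8% and 38.5% in B6 and 40.9% and 35.7% in NOD. The median distance to the nearest region was 125 kb for empty B6 and 74.99 kb for empty NOD regions, against 98.1 and 48.5 kb for the others.

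Long runs were rare. A run was counted as consecutive empty regions of a list with no region with other-strain tags between them and at most 1 Mb from one to the next. Runs of 3 or more held 650 empty B6 regions (28.7%) and 587 empty NOD regions (22.6%), whereas 977 and 1244 stood alone. Since 36% and 30.5% of the regions within the limits were empty, runs also arise without clustering. How many would arise in that way was not worked out, so the runs below are descriptions and not an excess. The 5 B6 runs taken as longest were all on chromosome 6. That chromosome had the most B6 regions within the limits (866) and the highest share empty (42.4%). The longest, chr6:12655254-14361759, held 11 empty regions with 15 to 37 tags over 1.71 Mb, from the gene Thsd7a to 2610001J05Rik. The second, over 2.42 Mb around the glutamate receptor gene Grm7, and the third, over 1.77 Mb with 11 vomeronasal receptor genes from Vmn1r21 to Vmn1r31, held 9 each. The fourth, with 8, spanned Klf14, Podxl and Plxna4, and the fifth, with 7, lay at Cntnap2. In all, 2 B6 runs held 7, and only that at Cntnap2 was taken. In the NOD list no run had more than 6, and of the 7 runs with 6, 5 were taken. The run with the most tags covered 0.25 Mb at Zfp827 on chromosome 8, with 24 to 67 tags per region, and others of the longest lay at Mdga2, at Tlr4 and at a cluster of Pramel and Aadacl4 genes.

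None of these 10 runs was free of the other strain. The longest B6 run held 6 NOD-enriched H3K4me3 regions, 3 of which had no B6 tags, and 7 NOD-enriched H3K27ac regions. The other B6 runs held 2 to 10 NOD-enriched H3K4me3 regions, and the 5 NOD runs held 1 to 7 B6-enriched ones. In the B6 runs 38 of 44 empty regions were single-copy, and in the NOD runs 22 of 30. The nearest place in any of the lists with a tag or an H3K27ac region of the other strain was a median of 45.4 kb away for empty B6 regions and 31.4 kb for empty NOD regions. It was within 100 kb for 73.8% and 78.7%. The like distance was not measured for other positions, so these values cannot be called particular to empty regions. The longest interval around an empty region with no such place was at the start of chromosome 14 in the B6 list, with 3.97 Mb of known bases and 5 empty regions, among them those at Gm2897 and Gm3248 with 35 and 34 tags. Of their words 61.1% and 59.97% were found once. In the NOD list it was on chromosome 7, with 3.27 Mb of known bases and 2 empty regions.

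In a few places both strains had a region of their own beside each other. Within 1 kb of a region of the opposite list lay 22 empty B6 and 23 empty NOD regions (0.97% and 0.89%), against 2.99% and 1.72% of regions with tags of the other strain. In 6 pairs each region lacked tags of the opposite strain, and in 4 of the 6 both regions met the limits. On chromosome 2, a region with 18 B6 and 0 NOD tags stood 19 bp from one with 26 NOD and 0 B6 tags. On chromosome 8, 16 B6 tags stood 52 bp from 27 NOD tags, on chromosome 16, 16 B6 tags stood 277 bp from 31 NOD tags, and on chromosome 5, 17 B6 tags stood 806 bp from 35 NOD tags. The remaining 2 had a neighbour below the tag minimum, with 26 B6 tags 829 bp from 20 NOD tags on chromosome 5 and 29 NOD tags 438 bp from 12 B6 tags on chromosome 14. In these 6 pairs, tags of each strain lay within 1 kb of a region where that strain had none. Whether sequence of the empty regions themselves was missing or different in a strain was not tested.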

How the data were processed

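ChIP-Seq regions of H3K4me3 and H3K27ac from ES cells of 2 strains were analysed, 1 library per strain and mark. Per the study's methods, reads were mapped to mm10 with bowtie2 and analysed with HOMER; the labels' processing notes name CASAVA 1.8.2, STAR 2.2.0c and mm9. TSS distances in the H3K27ac lists matched GRCm38.p6 in 10052 of 11253 cases within 10 bp, so that build was used. In the deposited H3K4me3 lists, called with the other strain as background at 4-fold and a Poisson p-value of 1.00e-04, the authors give whole tag counts in B6, a signal scaled to the B6 library in NOD, and 0 tags as a small floor value. At most 1 tag per bp was kept by the authors. The H3K27ac score deposited by the authors was not compared. The authors' fold and p-value columns were not used.

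Whole tags were recovered from the library totals. Regions with the same limits and tags of the other strain served as comparison. Words of 50 bases were counted over the whole reference on both strands. An overlap was 1 bp or more. Intervals are 95% Wilson intervals. Limits with 0 tags use 3 counts. Genes and TSSs are those of RefSeq, GRCm38.p6. Python 3.11.15, numpy 2.4.6, pandas 2.3.3, scipy 1.17.1 and numba were used, and the word and interval functions were tested on simulated data. Named were the 10 regions of each list with the most tags, the 10 genes with the most tags at a TSS, genes of preset lists and the 5 longest runs, of which 1 run and 1 sequence are not reported here. The selection, lists and alternatives were chosen with earlier results of these data known. The classes of own tags were set after seeing the values.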

Additional observations from a re-analysis of the deposited data

Results flagged for a closer look

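Some empty H3K4me3 regions lay outside the limits and were in no comparison above. On the X chromosome, 10 B6 regions and 37 NOD regions met the same limits of size and tags and had no tags of the other strain. Among regions of 1000 bp or more on chromosomes 1 to 19 with 15 or more own tags, 14 in the B6 list and 44 in the NOD list were empty. The strongest of these wide regions was chr11:5697676-5700169 in B6, with 243 tags, 8.78 kb from the TSS of Mrps24. The strongest in NOD was chr14:55819923-55821314, with 167 tags. Another, chr17:35503500-35505163, held 110 NOD tags and 0 B6 tags. Its nearest TSS was that of the predicted gene Gm32362, 1.41 kb away, and a TSS of the pluripotency gene Pou5f1 lay within 5 kb. These values were drawn from data left aside by the selection, and no control library was analysed here.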

How the results depend on the processing

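No paired analysis was possible because each strain and mark had 1 library, and for the same reason no library could be left out. Of 48 alternative values, 25 stayed within the interval, quartiles or 1.5-fold range of the reported one. Within the 1.5-fold range, a minimum of 10 tags gave 2806 empty B6 and 3848 empty NOD regions, against 2265 and 2595. Allowing 1 tag of the other strain gave 2686 and 3394. The number of empty regions moved beyond that range only with a minimum of 20 tags, to 1076 in B6 and 958 in NOD. With 20 tags or more the share of regions that were empty was 28.7% and 19.4%. The same minimum gave 31.8% and 21.5% of empty regions next to an empty one, 73.1% and 77.1% single-copy, and 2.70% and 6.16% overlapping same-strain H3K27ac. Counting the nearest region of any size and tag number, 33.6% and 23.3% were next to an empty one. Neighbours within 100 kb gave 31.8% in NOD. Without strong regions it was 43.8% and 40.9%. In each of these neighbour counts the share among regions with other-strain tags was lower, unlike on chromosome 8 alone. With words of 36 bases 65.0% and 65.1% were single-copy, and with 30 tags or more 45.8% and 63.3%. A window of 5 kb put 19.1% and 22.0% at a TSS, and a distance of 1 kb put 3.002% and 5.82% at same-strain H3K27ac. The order of empty regions and the others turned, with overlapping intervals, for single-copy regions of B6 with 20 tags or more (73.1% against 74.0%), for NOD with words of 36 bases (65.1% against 65.6%), and for H3K27ac of NOD with 20 tags or more (6.16% against 6.08%). Depth limits every 0, which allows 3 tags.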
